A study of Arabidopsis thaliana with 9 samples.

Results

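The 60 genes described here are family 1 UDP-glycosyltransferase (UGT) genes of Arabidopsis thaliana, given as a list of gene identifiers out of the 37184 genes in the count tables. They fall into 13 numbered UGT groups, from UGT71 to UGT89, of which 4 hold 1 listed member each. The genes were chosen by family name after the small RNA difference between Col-0 and dxo1-2 in these libraries was known, with no cut on a value. Calls over the members are therefore a description, given beside the share of all genes called, and support nothing by themselves.

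Family 1 UGTs move a sugar from a UDP-sugar donor onto small molecules. In plants their acceptors include hydroxycinnamic acids, monolignols, flavonols and anthocyanins, the hormones auxin, cytokinin, abscisic acid and salicylic acid, and foreign compounds. Adding the sugar changes the solubility, storage and activity of the acceptor, and related UGT genes often stand side by side in the genome.

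Small RNA was sequenced from wild-type (Col-0) plants and from plants of the mutant dxo1-2 (3 biological replicates each), and total RNA without ribosomal RNA from dxo1-2 (3 biological replicates). DXO1 encodes the plant relative of the DXO/Rai1 proteins of RNA 5′-end quality control. All plants were labelled seedlings of 21 days, raised on soil under long days (16 h of light) once seeds had been kept for 2 days at 4 °C. The labels state neither how the dxo1-2 allele was made nor how many plants went into a library. Wild-type RNA-seq was not analysed here, so RNA levels below are of dxo1-2 alone.

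The small RNA libraries held 3976221 to 5698185 gene counts and the RNA-seq libraries 60138933 to 71210737. DXO1 itself had 26, 45 and 21 small RNA counts in Col-0, against 60, 46 and 57 in dxo1-2, and 108, 76 and 113 counts in the RNA-seq libraries. Without wild-type RNA-seq, these values are no check of the mutant label. In RNA-seq the 5 leaf markers summed to 9176 to 11449 CPM (counts per 1e+06 gene counts after TMM scaling, not adjusted for gene length), while 4 root markers summed to 0.0305 to 0.135 CPM and 4 flower markers to 0.606 to 1.11 CPM. Of the root markers, RHD6 and EXPA7 had no RNA-seq count. In small RNA, 2 of the 5 leaf markers were called higher in dxo1-2, LHCB1.1 (168 ± 80.4 CPM in Col-0, 915 ± 112 CPM in dxo1-2) and PSAF (23.0 ± 11.8, 41.2 ± 6.998), while RBCS1A, RBCS3B and RCA did not pass, at log2 fold changes of 0.47, 0.010 and -0.29. Summed raw counts of the 5, not scaled for depth, were 1314 to 2874 in Col-0 and 7412 to 8189 in dxo1-2, a difference carried mainly by LHCB1.1, and the part of these markers in the results below was not tested.

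Small RNA counts over UGT genes were about 8 times as abundant in dxo1-2 as in Col-0. Summed over the 60 members, they reached 126, 105 and 118 CPM in the 3 Col-0 libraries and 865, 990 and 941 CPM in dxo1-2, a ratio of means of 8.01. Every dxo1-2 library lay far above every Col-0 library. In RNA from tissue of mixed cell types, a change in cell numbers and a change in RNA per cell cannot be told apart. Most of the gain came from 3 genes, UGT84A2, UGT71B1 and UGT84A3, which took 15.1 to 19.0% of the members' counts in Col-0 and 59.3 to 63.2% in dxo1-2. The other 57 members summed to 97.2 ± 11.1 CPM in the wild type and 359 ± 6.40 CPM in the mutant (SD, n = 3 each), a ratio of 3.69.

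**Figure D1:**
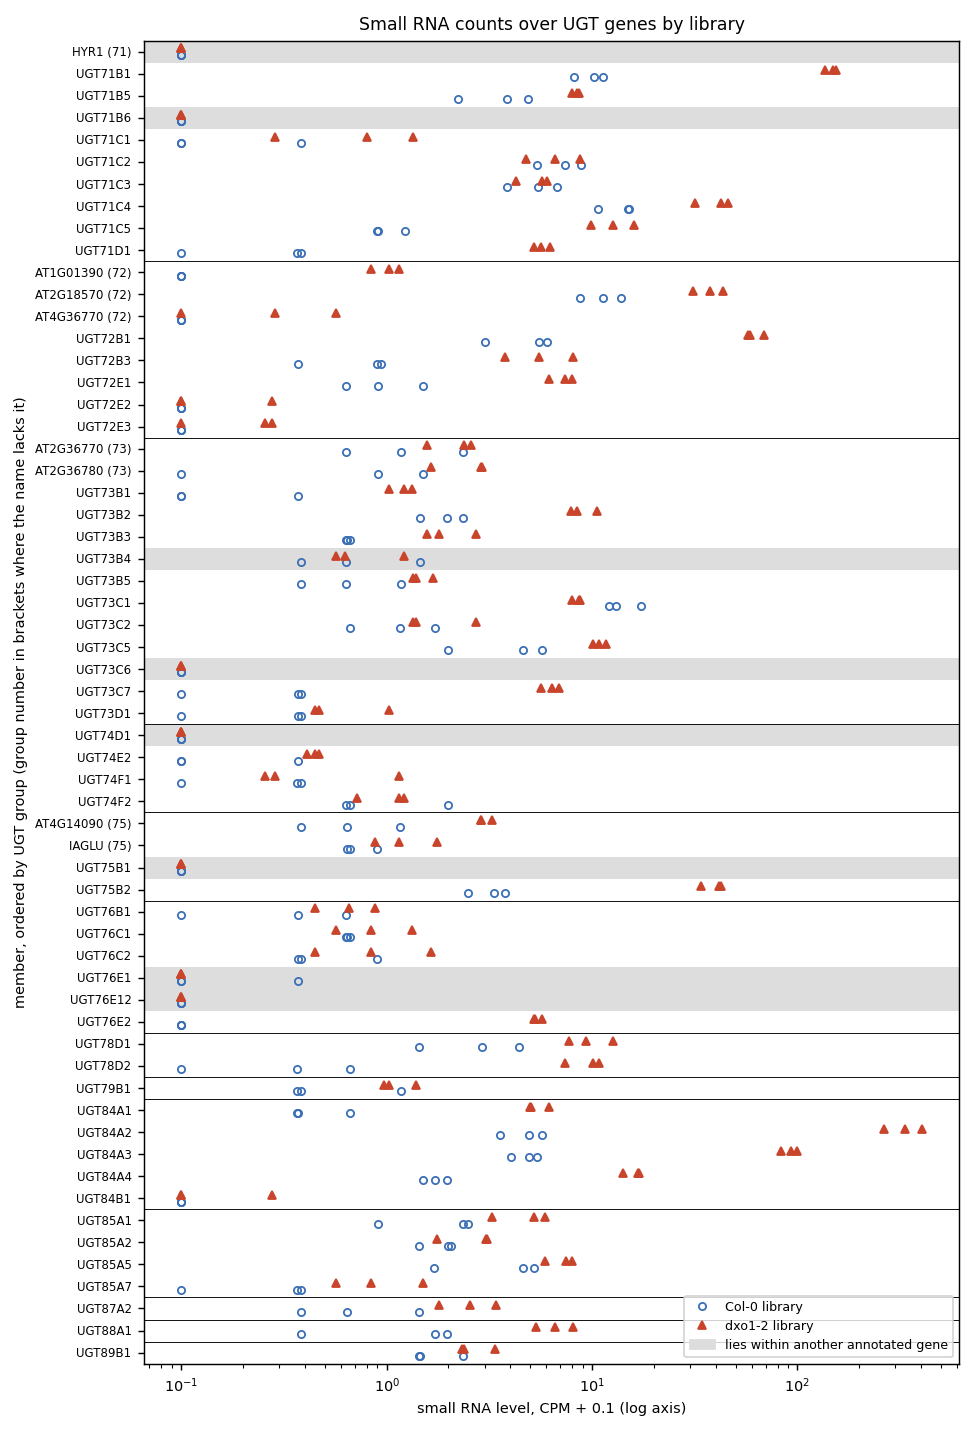
Small RNA level of each of the 60 UGT genes in every library, as CPM + 0.1 on a log axis, with genes in rows ordered by UGT group, open circles for the 3 Col-0 libraries and triangles for the 3 dxo1-2 libraries. Triangles lie to the right of all circles for 33 members, with UGT84A2 at 265 to 406 CPM, and grey rows mark the 8 members that lie within another annotated gene.

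Across the whole list, every dxo1-2 library was above every Col-0 library for 33 of 60 members and below for 1, UGT73C1. Among all genes with at least 1 small RNA count these shares were 21.1% and 11.5%. A test was possible for 28 members, and 23 of them were called higher and 1 lower (edgeR quasi-likelihood test over all genes, adjusted p under 0.05). The same fit called 26.8% of 11534 tested genes higher and 23.0% lower, and among tested protein-coding genes 40.5% and 17.1%. This split depended on the scaling, with 3093 genes higher and 2651 lower as reported, 4703 and 809 with library totals alone, 6828 and 502 with summary lines counted in, and 1878 and 6244 with TMM factors from small nuclear RNA genes. The p-values measure the spread between the biological replicates named in the labels. The median fitted log2 fold change, dxo1-2 over Col-0, was 2.64 over the 28 tested members (2.52 with the member that had no Col-0 count set at its bound), 0.48 over tested protein-coding genes and -0.019 over all tested genes. Of the 28, 18 entered the test only through their dxo1-2 counts, which tilts the outcome towards higher calls, so nothing is read from these counts. Of those 18, UGT85A5 and UGT89B1 did not pass. Among the 10 members whose counts in each genotype alone passed the filter, 7 were called higher, 1 lower and 2 neither.

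**Figure D2:**
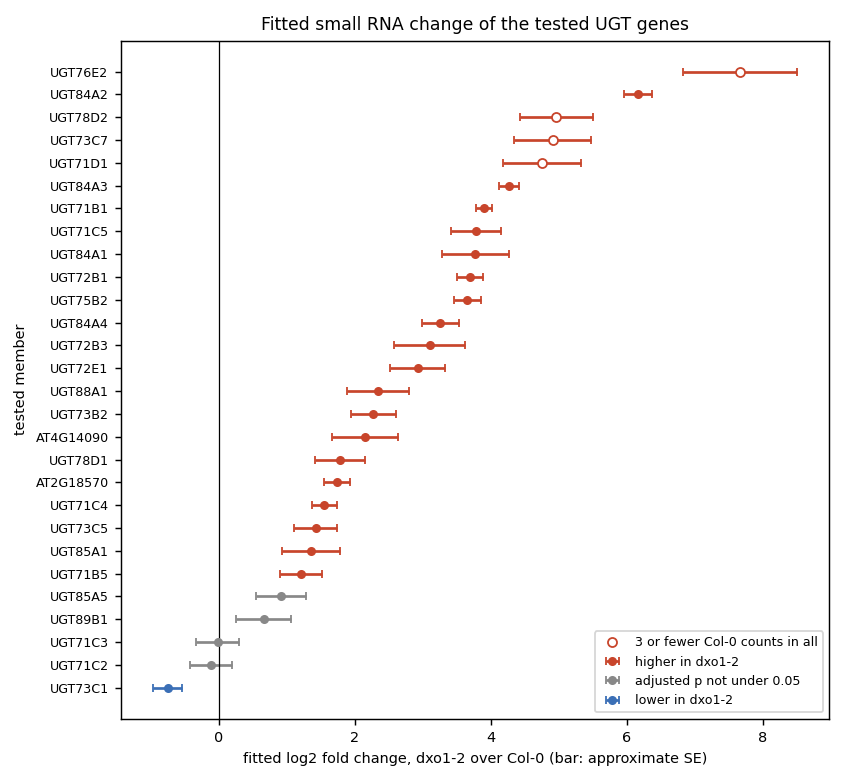
Fitted log2 fold change in small RNA of the 28 tested UGT genes, dxo1-2 over Col-0 (n = 3 libraries each), with approximate standard errors as bars and colours for the call in the all-gene fit. Values run from -0.74 for UGT73C1 to 6.17 for UGT84A2 among filled symbols, and open symbols mark members with 3 or fewer Col-0 counts in all, whose fitted value is not a bound.

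The UGT84 group, whose UGT84A enzymes form glucose esters of hydroxycinnamic acids, had the largest ratio between genotypes of the 13 groups. Its 5 members summed to 11.3 ± 0.378 CPM in Col-0, compared with 448 ± 61.3 CPM in dxo1-2 (SD, n = 3 each), a ratio of 39.5. All 4 UGT84A genes were called higher, beside 26.8% of all tested genes. Of these, UGT84A1 and UGT84A4 entered the test only through their dxo1-2 counts. The auxin glucosyltransferase gene UGT84B1 had a single small RNA count in 6 libraries and none in RNA-seq. UGT84A2 (AT3G21560), the main sinapate glucosyltransferase, stood at 5.62, 3.46 and 4.85 CPM in Col-0 libraries against 265, 406 and 334 CPM in dxo1-2. The groups were far apart, with a log2 fold change of 6.17 ± 0.20 (SE).

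UGT84A3 (AT4G15490) had 3.94, 5.32 and 4.85 CPM in the wild type and 99.3, 83.1 and 92.5 CPM in the mutant (log2 fold change 4.27 ± 0.15). UGT84A4 (AT4G15500) had 1.41, 1.86 and 1.62 CPM against 16.7, 14.0 and 16.8 CPM (3.26 ± 0.27). For both genes the dxo1-2 libraries agreed within a narrow band well above Col-0. UGT84A1 (AT4G15480), which partly overlaps another gene, had 2, 1 and 1 counts in Col-0, against 32, 33 and 28 in dxo1-2 (3.78 ± 0.49). UGT84A1, UGT84A3 and UGT84A4 are direct neighbours on chromosome 4, whereas UGT84A2 lies on chromosome 3. Close copies can share reads, and whether these 4 did was not tested.

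In the UGT72 group, known for glucosylating monolignols and chlorinated foreign compounds, 4 of 8 members were tested. All 4 were called higher, beside 26.8% of all tested genes. Of these, UGT72B3 and UGT72E1 entered the test only through their dxo1-2 counts. UGT72B1 (AT4G01070), which acts on chlorophenols and chloroanilines, had 5.90, 2.93 and 5.39 CPM in Col-0, compared with 68.4, 58.6 and 57.5 CPM in dxo1-2, a log2 fold change of 3.70 ± 0.19. AT2G18570 had 13.8, 11.2 and 8.63 CPM against 37.6, 43.4 and 30.8 CPM (1.74 ± 0.19). Groups did not overlap for either gene. UGT72E1 (AT3G50740), a monolignol glucosyltransferase gene, had 1.41, 0.532 and 0.809 CPM in Col-0 libraries against 7.28, 6.10 and 7.88 CPM in dxo1-2 (2.93 ± 0.41), and UGT72B3 had 7 summed Col-0 counts and 99 summed dxo1-2 counts. AT1G01390, next in line to UGT72B3 with 2 protein-coding genes between, had no Col-0 count and 6, 4 and 6 counts in dxo1-2. The related UGT72E2 and UGT72E3 held 1 and 2 small RNA counts in all, and at most 5 RNA-seq counts in any library.

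The UGT78 group holds flavonoid glycosyltransferase genes, and both listed members entered the test only through their dxo1-2 counts. UGT78D1 (AT1G30530), a flavonol 3-O-rhamnosyltransferase gene, had 2.81, 1.33 and 4.31 CPM in the wild type and 7.59, 12.6 and 9.28 CPM in the mutant (log2 fold change 1.79 ± 0.37). UGT78D2 (AT5G17050), which glucosylates flavonols and anthocyanidins at the 3-O position, had 2, 1 and 0 counts in Col-0, against 47, 58 and 57 in dxo1-2. The depth-scaled ratio was 33.9, with an exact binomial 95% interval of 11.4 to 166 that covers counting error only. Both members of this group were called higher, beside 26.8% of all tested genes. UGT79B1, an anthocyanin-modifying glycosyltransferase gene, had 6 and 18 summed counts, too few for the test, and its libraries overlapped.

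**Figure D3:**
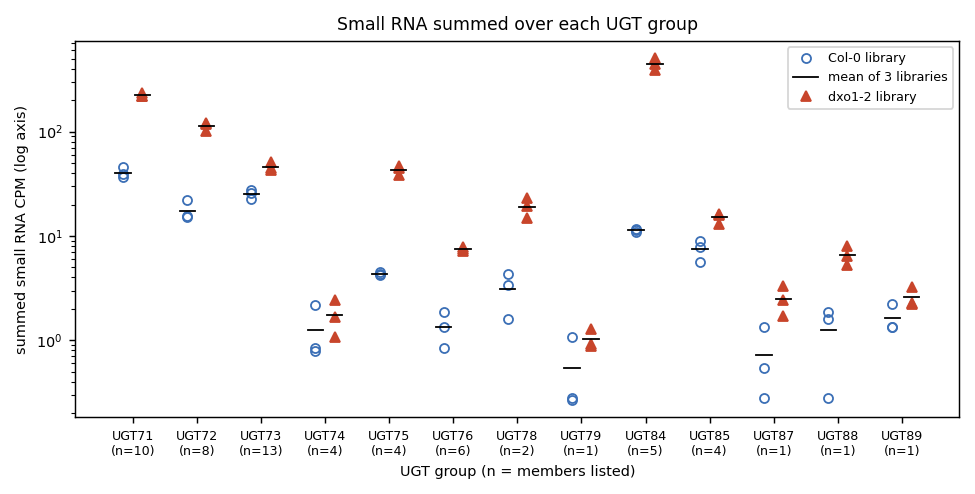
Small RNA CPM summed over the listed members of each UGT group, on a log axis, with open circles for the 3 Col-0 libraries, triangles for the 3 dxo1-2 libraries and a line for each mean. The UGT84 group goes from 11.3 to 448 CPM, while the 4 listed UGT74 members, UGT74D1 at 0 among them, are at 1.27 and 1.73 CPM with overlapping libraries.

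The UGT71 group, with acceptors from flavonoids to abscisic acid, summed to 40.5 ± 4.50 CPM in Col-0, compared with 226 ± 9.29 CPM in dxo1-2. Of its 10 members 5 were called higher, 2 did not pass and 3 were not tested, beside 26.8% of all tested genes called higher. Of the 5, UGT71B5, UGT71C5 and UGT71D1 entered the test only through their dxo1-2 counts. UGT71B1 (AT3G21750), which touches a long non-coding RNA gene at its end, had 10.1, 11.2 and 8.09 CPM in Col-0 libraries against 149, 137 and 154 CPM in dxo1-2, a log2 fold change of 3.90 ± 0.12. It came second to UGT84A2 by counts and took 13.8 to 17.2% of the members' counts in dxo1-2. UGT71C5 (AT1G07240), an abscisic acid glucosyltransferase gene, had 4, 3 and 3 counts in Col-0, against 103, 53 and 72 in dxo1-2 (3.78 ± 0.37). UGT71D1 had 1, 1 and 0 counts against 33, 30 and 35, a depth-scaled ratio of 30.7 (exact binomial 95% interval 8.28 to 257).

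Neighbours within the group were not all called. UGT71C4 (AT1G07250) had 14.9, 10.6 and 15.1 CPM in the wild type and 31.6, 45.6 and 42.6 CPM in the mutant (log2 fold change 1.56 ± 0.18). The next gene, UGT71C3, partly overlaps UGT71C4 and had 5.34, 6.65 and 3.78 CPM against 4.18, 5.91 and 5.61 CPM. For UGT71C3 the libraries overlapped, with a log2 fold change of -0.014 ± 0.31. UGT71C2 overlapped as well, at -0.11 ± 0.31. Whether UGT71C4 and UGT71C3 differ in their change was not tested, nor was an effect of their overlap on the counts. UGT71B5 (AT4G15280) had 4.78, 2.13 and 3.78 CPM in Col-0, compared with 8.36, 8.50 and 7.88 CPM in dxo1-2 (1.21 ± 0.31), a call that did not hold when TMM factors came from small nuclear RNA genes (adjusted p = 0.175, edgeR).

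The UGT73 group, which includes genes of brassinosteroid glucosylation and detoxification, was mixed. It summed to 25.3 ± 2.59 CPM in Col-0 libraries against 46.1 ± 4.40 CPM in dxo1-2, a ratio of 1.82. Of its 13 members 3 were called higher, 1 lower and 9 were not tested, beside 26.8% higher and 23.0% lower of all tested genes. The 3 called higher entered the test only through their dxo1-2 counts. UGT73C1 (AT2G36750) was the one called lower, with 12.9, 11.97 and 17.3 CPM in the wild type and 7.90, 8.68 and 8.58 CPM in the mutant. All dxo1-2 libraries were below all Col-0 libraries, with a log2 fold change of -0.74 ± 0.21 (edgeR adjusted p = 0.0118). The call was lost with library totals alone (adjusted p = 0.153) and with every line counted in the library size (0.507), though the direction held in both.

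UGT73C5 (AT2G36800), which glucosylates brassinosteroids and the fungal toxin deoxynivalenol, stands in the same array of 6 neighbouring UGT73 genes on chromosome 2 and was called higher. It had 4.50, 5.59 and 1.89 CPM in Col-0, compared with 10.1, 10.7 and 11.6 CPM in dxo1-2 (log2 fold change 1.43 ± 0.32). Between them, AT2G36770, AT2G36780 and UGT73C2 had too few counts for the test, and UGT73C6 was listed at 0. UGT73C2 had 12 and 30 summed small RNA counts with a single RNA-seq count in 3 libraries. Elsewhere, UGT73B2 (AT4G34135) had 2.25, 1.86 and 1.35 CPM in Col-0 libraries against 8.36, 7.76 and 10.5 CPM in dxo1-2 (2.27 ± 0.33). UGT73C7 had 1, 0 and 1 counts against 36, 37 and 36, a depth-scaled ratio of 34.2 (exact binomial 95% interval 9.24 to 286). Its neighbour UGT73D1 had 2 and 10 summed counts. UGT73B3 and UGT73B5, genes of the pathogen and redox response, had 6 and 7 summed counts in Col-0, against 34 and 24 in dxo1-2, and UGT73B1 had 1 and 19. All 3 were too low for the test, and the dxo1-2 libraries of each lay above those of Col-0.

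In the UGT75 group most small RNA counts lay on 1 gene. UGT75B1, which lies within another annotated gene, was at 0, and its small RNA level cannot be read. UGT75B2 (AT1G05530) had 3.65, 2.39 and 3.24 CPM in the wild type and 41.3, 33.8 and 42.6 CPM in the mutant, a log2 fold change of 3.66 ± 0.20. AT4G14090 had 7 and 51 summed counts, entered the test only through its dxo1-2 counts and was called higher. IAGLU, the indole-3-acetate glucosyltransferase gene, had 7 and 20 summed counts and was not tested. In the UGT85 group, UGT85A1 (AT1G22400), a trans-zeatin O-glucosyltransferase gene, entered the test only through its dxo1-2 counts and was called higher at 1.36 ± 0.43. That call did not hold when TMM factors came from small nuclear RNA genes, or without Col-0 replicate 3, dxo1-2 replicate 1 or dxo1-2 replicate 3, at adjusted p values from 0.0605 to 0.159 (edgeR). UGT85A5 (AT1G22370) had 4.50, 1.60 and 5.12 CPM against 7.90, 7.39 and 5.78 CPM and did not pass (0.91 ± 0.37, edgeR adjusted p = 0.0553), although its libraries did not overlap. It passed under 6 of 15 alternatives, with adjusted p from 0.00253 to 0.529 over all 15 (edgeR, limma or DESeq2). UGT85A2 and UGT85A7, of the same array, had 19 and 2 summed Col-0 counts and 45 and 15 in dxo1-2, too few for the test.

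Among groups with 1 listed member, UGT88A1 (AT3G16520) had 0.281, 1.86 and 1.62 CPM in Col-0, compared with 5.26, 7.95 and 6.48 CPM in dxo1-2. UGT88A1 entered the test only through its dxo1-2 counts and was called higher (log2 fold change 2.34 ± 0.45). UGT89B1 did not pass, at 0.66 ± 0.41, and passed under 1 of 15 alternatives, with summary lines counted in (edgeR adjusted p = 0.018, range over alternatives 0.018 to 0.95). UGT87A2, a gene known to affect flowering time, had 8 and 43 summed counts and was not tested.

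Several members that conjugate hormones carried few small RNA counts in both genotypes, unlike UGT71C5, UGT73C5 and UGT85A1, described above. UGT74F2 (AT2G43820) and UGT74F1, the salicylic acid glucosyltransferase genes, had 11 and 2 counts over the 3 Col-0 libraries and 16 and 8 over the dxo1-2 libraries. UGT76B1, which acts on isoleucic acid and salicylic acid, had 3 and 10. The cytokinin N-glucosyltransferase genes UGT76C1 and UGT76C2 had 6 and 5 counts over the Col-0 libraries and 14 and 16 over the others. None of these 5 genes had enough counts for the test, and at this depth a difference between genotypes was not detectable. Of the auxin genes, UGT74E2 had 1 and 6 counts and IAGLU 7 and 20. The 4 listed UGT74 members summed to 1.27 ± 0.772 CPM in Col-0 libraries against 1.73 ± 0.687 CPM in dxo1-2, with overlapping libraries. That sum holds UGT74D1 at 0, a gene whose small RNA cannot be read, and leaves out UGT74B1, which is not on the list and was called higher.

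Mean RNA-seq levels of the 60 members in dxo1-2 ran from 0 to 68.1 CPM with a median of 4.81 CPM. At least 1 CPM was reached by 46 members and at least 10 CPM by 22. UGT88A1 had 64.5, 75.4 and 64.3 RNA-seq CPM, UGT78D1 55.4, 60.6 and 57.8, and UGT78D2 32.8, 33.3 and 28.9, so these genes were steady between libraries.

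Some members were low in both assays, such as UGT72E2, UGT72E3 and UGT84B1, and others had few small RNA counts beside many RNA-seq counts. In the dxo1-2 RNA-seq libraries UGT74F2 had 4517, 3634 and 4739 counts, or 65.7 ± 5.75 CPM (SD, n = 3), and UGT76C2 25.5 ± 1.18 CPM. UGT84A2, with 265 to 406 small RNA CPM, had an RNA level of 27.4 ± 0.471 CPM. CPM of different genes are not adjusted for length, so the genes were compared by the small RNA CPM over the RNA-seq CPM of the same gene in dxo1-2, in which length largely cancels. This ratio was 12.2 for UGT84A2 and 0.0345 for UGT76C2.

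Over the 38 members with at least 1 RNA-seq CPM and not within another gene, the ratio ran from 0.0141 to 21.4 with a median of 0.693. Its median was 0.0813 over the 17046 protein-coding genes that met the same conditions. At the upper end stood AT2G18570 at 21.4, UGT84A2 at 12.2 and UGT71B1 at 7.005, above 99.5%, 99.2% and 98.7% of those genes. At the lower end stood UGT74F2 at 0.0141 and UGT74E2, an indole-3-butyrate glucosyltransferase gene, at 0.0221, above 3.14% and 8.44%. IAGLU followed at 0.0325. Across the 52 members not within another gene, at any RNA-seq level, Spearman's rho between small RNA and RNA-seq levels was 0.377 in dxo1-2. It was 0.487 across those protein-coding genes, which all had at least 1 RNA-seq CPM, so the sets are not alike. Both values are over genes of the same libraries and without a test.

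**Figure D4:**
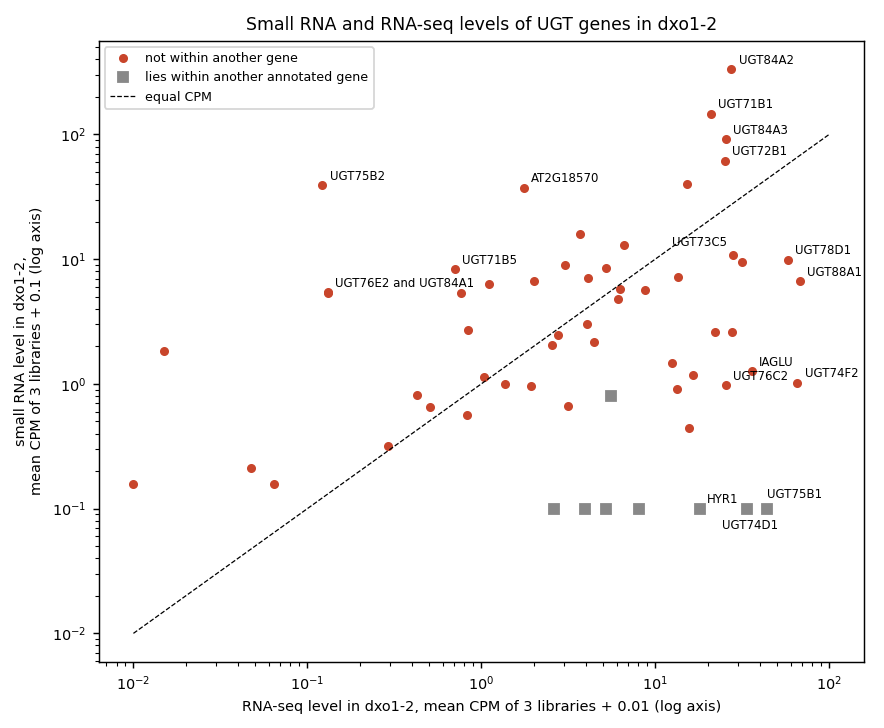
Mean small RNA level (vertical, CPM + 0.1) against mean RNA-seq level (horizontal, CPM + 0.01) of the 60 UGT genes in dxo1-2, n = 3 libraries each, on log axes with a dashed line at equal CPM. UGT84A2, UGT71B1 and UGT75B2 lie far above the line, UGT74F2 and IAGLU far below it, and grey squares, most of them along the bottom, are members within another annotated gene.

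A few members had small RNA in dxo1-2 with next to no RNA-seq counts. UGT75B2 had 267, 183 and 243 small RNA counts in dxo1-2 but 5, 4 and 13 RNA-seq counts in libraries more than 10 times as deep. UGT76E2 (AT5G59590) had no small RNA count in Col-0, 33, 28 and 32 in dxo1-2, and 9, 5 and 10 in RNA-seq. With the Col-0 libraries set to a floor of 3 counts each, the difference was at least 6.48-fold higher in dxo1-2. UGT84A1 had 11, 7 and 6 RNA-seq counts. Of the 14 members under 1 RNA-seq CPM and not within another gene, 6 were tested and 4 called higher, beside 26.8% of all tested genes. The 4 were these 3 genes and UGT71B5, which had 23, 59 and 50 RNA-seq counts. UGT76E2, UGT84A1 and UGT71B5 entered the test only through their dxo1-2 counts, so nothing is read from this count.

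UGT75B2, UGT76E2 and UGT84A1 each had a relative close by with more RNA-seq counts. UGT75B1, a p-aminobenzoate glucosyltransferase gene with 2 protein-coding genes between it and UGT75B2, had 3084, 2605 and 2952 RNA-seq counts. UGT84A3, next to UGT84A1, had 1789, 1591 and 1586, and UGT76E1, next to UGT76E2, had 158, 122 and 231. Multiply matching alignments, given in a summary line of each table, numbered 8107769 to 10096710 in RNA-seq and 0 in small RNA. Whether small RNA reads of the relatives were placed on UGT75B2, UGT76E2 and UGT84A1 was not tested.

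For 8 members no small RNA level can be read. HYR1 (AT3G21760), UGT71B6, UGT73C6, UGT74D1, UGT75B1 and UGT76E12 had a count of 0 in each of the 6 small RNA libraries, although all were transcribed in dxo1-2, at 18.1 ± 1.81 CPM for HYR1, 33.7 ± 2.39 CPM for UGT74D1 and 44.1 ± 0.747 CPM for UGT75B1. These enzymes include UGT71B6, which glucosylates abscisic acid, and UGT73C6, which glucosylates flavonols. Each of the 6 genes lies within the span of an annotated long non-coding RNA gene. UGT76E1, within another protein-coding gene, had 1 count in all, and UGT73B4, within the span of UGT73B5, had 1, 2 and 5 counts in Col-0, against 3, 6 and 3 in dxo1-2.

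The same pattern held across the genome. Of 181 protein-coding genes with at least 1 RNA-seq CPM that lie within another gene, 77.3% were at 0 in all 6 small RNA libraries, compared with 0.747% of 5354 genes with a partial overlap and 0.103% of 11692 with none. A 0 in such a gene therefore does not show that small RNA was absent. The surrounding long non-coding RNA genes were not alike. AT2G31751, around UGT74D1, held 1, 3 and 2 small RNA counts in the wild type and 25, 32 and 29 in the mutant. For AT3G21755, around HYR1, the wild type had 3, 5 and 4 and each mutant library 14. AT3G21781, around UGT71B6, and AT1G05562, around UGT75B1, were at 0 in all 6 small RNA libraries. AT2G36792, around UGT73C6, reached at most 1 in any small RNA library. AT3G46658, around UGT76E12, had none in the wild type and 0, 4 and 0 in the mutant. The protein-coding AT5G59570, around UGT76E1, had 2, 1 and 0 against 11, 8 and 3. Of the 39 members with no annotated overlap, 23 were tested, 19 were called higher and 1 lower, beside 26.8% and 23.0% of all tested genes, and many of these members entered the test only through their dxo1-2 counts.

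The remaining 24 untested members had 1 to 64 summed counts over the 6 libraries. Their mean level was greater in dxo1-2 for 23 of the 24, and every dxo1-2 library was above every Col-0 library for 9. The latter held for 21.1% of all genes with at least 1 small RNA count. No such share was computed for the mean level, so nothing is read from the 23. With no filter on counts, 54 members could be fitted, of which 29 were called higher and 1 lower, against 12.7% of all genes with a count called higher.

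Genes that work alongside UGTs were looked at by fixed lists. Of 20 genes for UDP-sugar supply 1 had enough counts for the test, the UDP-rhamnose synthase gene RHM1 (AT1G78570). RHM1 entered the test only through its dxo1-2 counts and was called higher at a log2 fold change of 1.29 ± 0.42 (edgeR adjusted p = 0.0213). Tau class glutathione transferases, another family of detoxification enzymes, had 3 higher and 2 lower of 27, with 7 tested. Of all tested genes 26.8% were called higher and 23.0% lower. GSTU8 (AT3G09270) fell from 127 ± 8.82 to 54.1 ± 1.46 CPM, and GSTU5 (AT2G29450) rose from 9.07 ± 3.03 to 31.8 ± 1.81 CPM (SD, n = 3 each). The others called higher were GSTU27 and GSTU20, at log2 fold changes of 2.16 ± 0.34 and 1.58 ± 0.39. Both entered the test only through their dxo1-2 counts. GSTU4 was the other called lower, at -1.05 ± 0.37. Of 4 detoxification regulators 2 were tested, and TGA6 was called higher (0.86 ± 0.32, edgeR adjusted p = 0.0410) while SCL14 did not pass (0.071 ± 0.30).

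Of 9 further genes with a UGT symbol outside the list, 3 were tested and all 3 were called higher, beside 26.8% of all tested genes. UGT85A3 and UGT71B8 entered the test only through their dxo1-2 counts, so nothing is read from this count. UGT74B1 (AT1G24100), of glucosinolate synthesis, had 61 summed Col-0 counts and 248 summed dxo1-2 counts, and UGT85A3 5 and 50. UGT71B8, with no RNA-seq count, had 1 and 38.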

How the data were processed

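The members and gene lists were chosen with earlier results of these data known. The deposited values are raw counts per gene, and each library's table ends with 5 summary lines that stayed out of tests. The build TAIR10 and the tools Bowtie, HISAT2, HTSeq, bedtools and DESeq2 are named per the submitters' processing notes. Versions and the role of each tool, the strand setting of the counting and the handling of multiply matching reads are not stated there. In small RNA, lines without a feature made up 67.6% ± 1.20 of all lines in Col-0 and 62.6% ± 0.816 in dxo1-2 (SD, n = 3 each), and ambiguous ones 1.97% ± 0.572 and 1.53% ± 0.323.

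Libraries were grouped by the titles. Small RNA was tested with edgeR 4.0.16 (R 4.3.3), by the quasi-likelihood test with TMM scaling, the default filter (10 counts at the median depth, in 3 libraries), genotype as the only term, a prior count of 0.125, and two-sided p-values adjusted by Benjamini-Hochberg over all tested genes. The ± after a log2 fold change is the absolute value over the square root of F, an approximate standard error. Alternatives covered scaling, DESeq2 1.42.0, limma-voom 3.58.1, filters, the replicate block and leaving out each library. RNA-seq, of 1 genotype, was described without a test.

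Names and neighbours came from a RefSeq table of TAIR10.1, which held all 60 identifiers. Coordinates and lengths from it were not used for values. A gene was called within another where at least 95% of its span lay inside it. Members without a UGT name there are given by identifier or RefSeq symbol, and their group was assigned from general UGT nomenclature. Sequences are not printed. Per-library values are given for called members that averaged 20 counts or more, and for each group's member with most counts if it reached that mean. Other members' values were chosen after they were seen. RNA-seq levels of the highest and lowest member of each group, planned per length, were not ranked for lack of a length.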

Additional observations from a re-analysis of the deposited data

How the results depend on the processing

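The number of members called higher was 23, and 21 to 25 under every other scaling, DESeq2, limma-voom, the replicate block and without rRNA and tRNA genes. It was 22 to 24 without any 1 library and 29 with no count filter. The share of all tested genes called higher moved more with the scaling. That share was 16.3% with TMM factors from small nuclear RNA genes, 40.8% with library totals alone and 59.2% with summary lines counted in. Without any 1 library the share was 21.9 to 28.1%, and with no count filter 12.7%. Of the 8 members that averaged 50 counts or more, 7 were called higher, beside 23.7% of all genes in that fit. The number called lower was 1, but 0 with library totals alone and 0 when the summary lines were counted in, and 2 when small nuclear RNA genes set the TMM factors, where UGT71C2 joined UGT73C1 (adjusted p = 0.0428, edgeR). It was 1 without any 1 library.

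The members' median log2 fold change of 2.64 was 2.97 with library totals alone, 3.20 with summary lines counted in, 2.01 with small nuclear RNA genes setting TMM, 1.72 with no filter, 3.82 over those averaging 50 counts and 2.14 to 2.60 without any 1 library. The median of all genes moved with the scaling, to 0.32, 0.55 and -0.66 in the first 3 of these. The ratio of summed CPM of 8.01 was 10.1, 11.9 and 5.11 under these 3 scalings, 3.69 without the 3 members highest in dxo1-2 and 7.51 to 8.29 without any 1 library, all chosen after the data were seen. The median RNA-seq level over members, 4.81 CPM, was 4.58 to 4.87 without any 1 library.

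Of 428 values of single members under alternatives, 402 kept direction and side of the threshold. Signs turned for 2 uncalled members. UGT71C3 was 0.32 with library totals alone, 0.56 with summary lines counted in, 0.00042 in DESeq2, 0.013 with no filter, 0.0015 with the replicate block, and without single libraries -0.24 to 0.17. UGT71C2 was 0.22 with library totals alone, 0.46 with summary lines counted in, and without single libraries -0.34 to 0.092. Deviations of same-numbered libraries correlated at 0.11, -0.097 and -0.037, and those of differently numbered libraries at -0.18 to 0.21. With so few libraries these values cannot tell whether the replicate numbers pair the samples. With the replicate block 23 members were higher and 1 lower.

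Of 60 members 32 were not tested. Low counts limit the 24 of these not within another gene, and for the 8 within another gene no small RNA level can be read. Of the causes of these shifts none was tested.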
